A study of Mus musculus with 15 samples.

Results

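The transcripts described here are 10 mRNAs of the respiratory chain and ATP synthase that the mitochondrial genome itself encodes, chosen by gene symbol: mt-Nd1, mt-Nd2, mt-Nd3, mt-Nd4 and mt-Nd5 of complex I, mt-Cytb of complex III, mt-Co1, mt-Co2 and mt-Co3 of complex IV, and mt-Atp6 of complex V. They were 10 of the 13 mitochondrially encoded genes and of the 32372 genes in the count matrix, and all 10 passed the filter on low counts that left 14260 genes for testing. Together they held 27526156 of 707518630 unique molecular identifiers (UMIs, each standing for 1 captured RNA molecule), or 3.89% of all UMIs and 98.9% of the UMIs of the mitochondrial chromosome. The question was whether they moved together after the dose.

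The data were single-cell RNA-seq profiles of microglia, the resident macrophages of the brain, isolated from cortex and hippocampus with CD45 beads. The 15 male mice were 3.5 months old, of the C57BL/6J strain, and all had the apical domain of the human transferrin receptor knocked into the mouse receptor gene (hTfR KI). Each had received 1 dose of 10 mg/kg of either ATV:4D9, an antibody against the microglial receptor TREM2 whose Fc domain also binds that human domain, or ATV:RSV, a control antibody with the same transport domain. Mice given ATV:4D9 were sampled 1, 7, 14 or 28 days later and those given ATV:RSV after 1 day, which made 5 groups of 3 mice, spread evenly over 3 batches. No ATV:RSV mice stood beside days 7, 14 and 28, so the same 3 ATV:RSV mice served all 4 comparisons and time since the dose could not be told apart from treatment at the later days. A further control animal named in the protocol was not analysed here.

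Transcription of the mitochondrial genome runs almost around the circle and yields long precursor RNAs that carry several genes each. Cleavage at the tRNAs that lie between most of the protein genes releases the single mRNAs, which are then polyadenylated and can be degraded at their own rates. The proteins are core, membrane-embedded subunits that join nuclear-encoded partners in complexes I, III, IV and V, whereas complex II is wholly nuclear-encoded.

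The 3′ ends of 5 members are shown because a 3′ assay reads the end of each mRNA and because these members moved unequally, as given below. The last 21 annotated bases are printed 5′ to 3′, with the stop codon, or the single base left of it, in capitals. All lie on the plus strand of the mitochondrial chromosome (M) of mm10, in the GENCODE M21 annotation, and each is a single exon without introns. mt-Nd1 spans 2751 to 3707, mt-Nd2 3914 to 4951, mt-Co3 8607 to 9390, mt-Nd4 10167 to 11544 and mt-Cytb 14145 to 15288.
mt-Nd1: ggagtaccaccatacataTAG
mt-Nd2: gccccccaactaattaccTAG
mt-Co3: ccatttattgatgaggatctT
mt-Nd4: taattacaggcctgacaataT
mt-Cytb: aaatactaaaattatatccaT
The annotated sequence of 7 members ended in a full stop codon, and that of mt-Co3, mt-Nd4 and mt-Cytb ended in a lone T, to which polyadenylation adds the rest of a UAA codon. Of the other members, mt-Co1 spans 5328 to 6872, mt-Co2 7013 to 7696, mt-Atp6 7927 to 8607, mt-Nd3 9459 to 9806 and mt-Nd5 11742 to 13565. mt-Atp6 shares 43 bases with mt-Atp8 and 1 base with mt-Co3, and mt-Nd4 shares 7 bases with mt-Nd4l, so reads there could be split between neighbours. mt-Nd5 overlaps mt-Nd6 on the opposite strand by 14 bases.

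Libraries held 5667 to 7596 cells and 32341960 to 70307384 UMIs per mouse. Median UMIs per cell were 8202 to 8996 in ATV:4D9 day 1 mice and 4694 to 6117 in the other 12 mice, so depth moved with the day 1 group. Cells with a UMI of the proliferation genes Mki67 or Top2a made up 19.6% to 27.4% of day 1 cells and 0.169% to 0.684% elsewhere. The 8 microglial markers summed to 13153 to 21075 CPM (counts scaled to the library total) per mouse, lowest at day 1, and the highest sum of any of 14 lists of other cell types was 488 CPM. No deposited cell had over 10% mitochondrial UMIs, and 0.463% to 1.19% of cells per mouse lay over 9%. Any limit of that kind acts on the members themselves. Of 100747 cell barcode sequences, 1283 occurred in more than 1 mouse and 0 were repeated within a mouse.

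ATV:4D9 raised all 10 transcripts at day 1. The increase ran from 0.37 (mt-Nd4) to 0.89 (mt-Nd1) on the log2 scale of summed counts per mouse, with a median of 0.52 against -0.05 over all 14260 genes (limma-voom, TMM scaling). All 10 were called higher, with adjusted p between 4.16e-08 and 0.00305. In this comparison 34.7% of all genes tested were called higher and 34.6% lower, 69.2% in all. In TMM-scaled CPM all 10 also had their 3 day 1 mice above every ATV:RSV mouse, which held for 35.7% of genes, while 35.9% had all 3 below. As an unscaled share of UMIs, mt-Nd3 and mt-Cytb each had 2 of 3 mice above.

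Among the complex I subunits, mt-Nd1, a core subunit of the membrane arm, changed most. Its CPM was 2049, 2049 and 2238 in ATV:RSV mice and 3859, 3702 and 4213 at day 1 (log2 fold change 0.89 ± 0.08 SE, adjusted p = 4.16e-08). The groups were far apart relative to their spread. mt-Nd2, the next gene along the genome, was at 2450, 2446 and 2701 in ATV:RSV mice and 3996, 3650 and 4393 at day 1 (0.66 ± 0.09, adjusted p = 4.77e-06). mt-Nd4 was at 2710, 2667 and 2716 in ATV:RSV mice and 3469, 3256 and 3767 at day 1 (0.37 ± 0.06, adjusted p = 4.93e-05), the smallest change of the 10. mt-Nd5, the scarcest member, was at 419, 445 and 433 against 541, 616 and 598 CPM (0.43 ± 0.06, adjusted p = 7.47e-06). mt-Nd3 varied most within groups, with a within-group SD of 0.26 on the log2 scale against 0.06 to 0.12 for the others. It stood at 1158, 736 and 896 CPM in ATV:RSV mice and at 1646, 1355 and 1358 at day 1 (0.66 ± 0.17, adjusted p = 0.00305).

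The catalytic core of cytochrome c oxidase (complex IV) moved within a narrower range. mt-Co1, the subunit that holds the oxygen-reducing centre, was at 4281, 4041 and 4097 CPM in ATV:RSV mice and 5844, 5571 and 5805 at day 1 (0.47 ± 0.05, adjusted p = 6.52e-07). mt-Co2, which accepts electrons from cytochrome c, was at 4580, 4394 and 4701 against 6937, 6258 and 7261 CPM (0.58 ± 0.07, adjusted p = 2.82e-06). mt-Co3 was at 6646, 6199 and 6909 against 9525, 8220 and 9734 CPM (0.47 ± 0.08, adjusted p = 9.91e-05). None of the 3 had overlapping groups. mt-Cytb, the mitochondrially encoded subunit of complex III, rose from 3489, 3084 and 3586 to 4738, 4127 and 4983 CPM (0.45 ± 0.08, adjusted p = 0.000178). mt-Atp6, part of the proton channel of ATP synthase, rose from 6271, 5851 and 6510 to 9389, 8270 and 9910 CPM (0.56 ± 0.08, adjusted p = 1.99e-05).

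**Figure D1:**
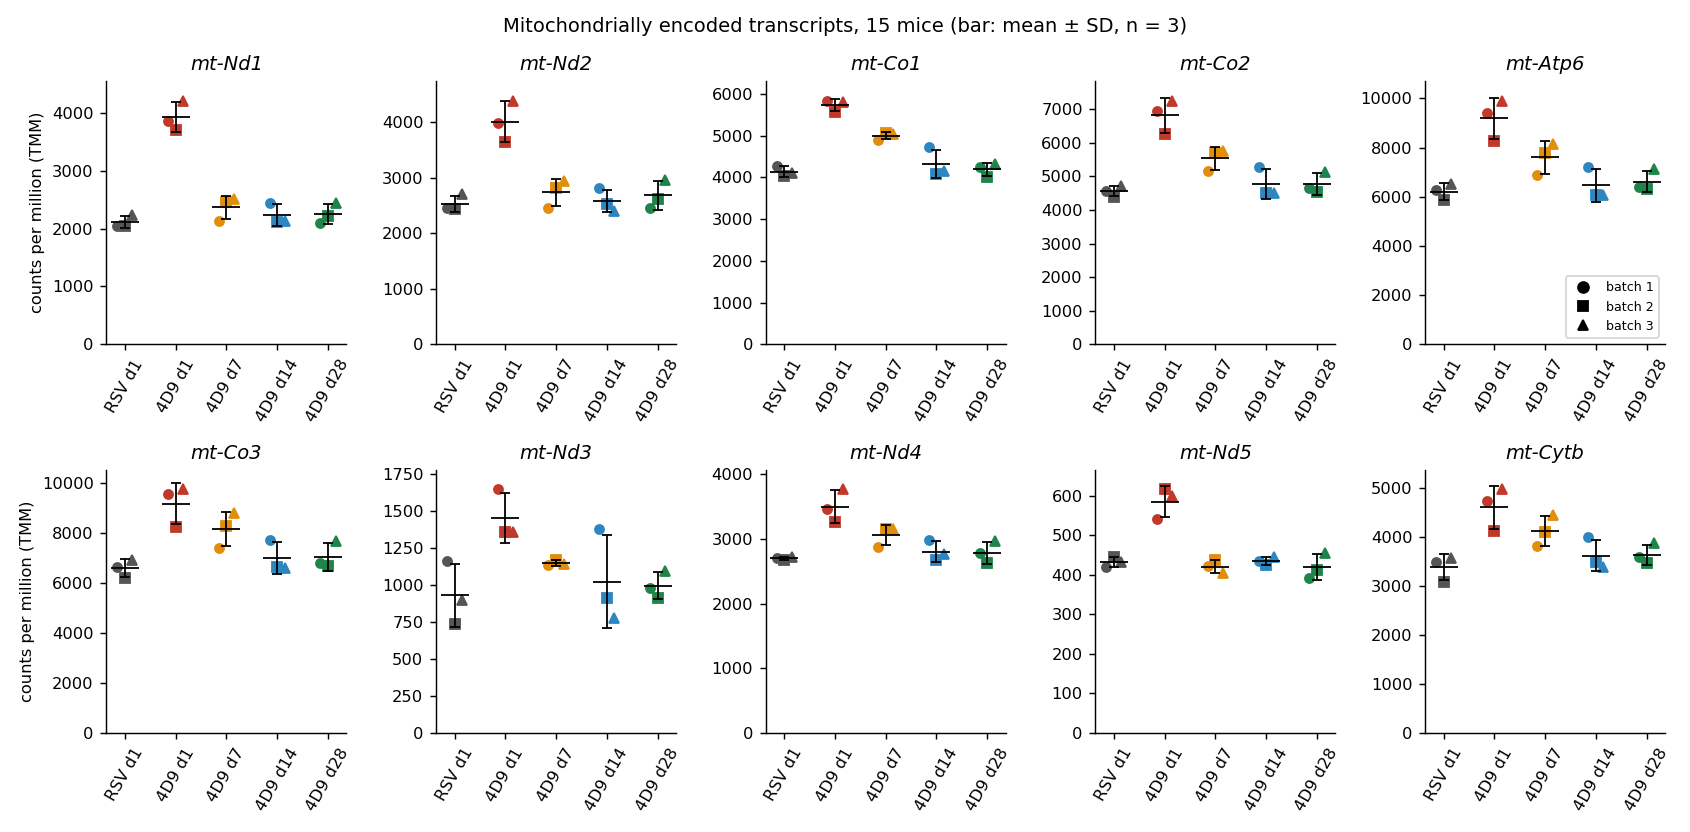
TMM-scaled CPM (y axis, from 0) of each member in each of 15 mice by group (x axis), with the mean ± SD of 3 mice and the batch as the point shape. Every day 1 point lies above every ATV:RSV point in all 10 panels, and mt-Nd3 has the widest spread within groups.

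These sizes depended on the scaling. Under library size alone the median change of all genes at day 1 was -0.29, and the members stood at 0.13 (mt-Nd4) to 0.65 (mt-Nd1), all 10 still called higher, where 25.9% of all genes were called higher and 48.8% lower. Library size alone lowered the members and the median of all genes by about the same amount. In counts summed per mouse, more RNA per cell and a change in which cells were captured cannot be told apart. Values per cell are given next, but a mean over captured cells also moves with which cells were captured and with depth.

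Per cell, the members summed to 237, 195 and 225 UMIs in the ATV:RSV mice of batches 1 to 3, and to 447, 375 and 405 at day 1. The day 1 mean was 1.87 times the ATV:RSV mean. All UMIs per cell were 1.52 times as many at day 1, so the members also took a larger share of the RNA. That share was 3.59%, 3.39% and 3.68% in ATV:RSV mice and 4.52%, 4.07% and 4.57% at day 1, and the difference was 0.934, 0.672 and 0.889 percentage points within batches 1, 2 and 3. Over the 5 groups the share differed (exact permutation of groups within batches, p = 0.0249), as did member UMIs per cell (exact p = 0.0253). Both lost the call without batch 2 or batch 3 (exact permutation p = 0.175 and 0.233 for the share, 0.192 and 0.125 for UMIs per cell). In cells with at most 5% mitochondrial UMIs the mean difference in share was 0.550 in place of 0.832 percentage points; such a limit left out 22.9% to 37.5% of day 1 cells and 15.2% to 16.8% of ATV:RSV cells. With 3 mice against 3 no single day could go below an exact p of 0.1, which is what the share at day 1 gave (0.4 adjusted over 4 days).

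Each cell was then thinned to 3385 UMIs, the 10th percentile of depth, leaving out 10204 shallower cells, from 3.93% to 17.8% of the cells of a mouse. At this matched depth the share was 3.49%, 3.33% and 3.63% in ATV:RSV mice and 4.45%, 3.97% and 4.54% at day 1. The 5 groups differed (exact p = 0.0174), although leaving out batch 1, 2 or 3 gave exact p = 0.0667, 0.108 and 0.200. At day 1, 9 of 10 members had all 3 mice above every ATV:RSV mouse at matched depth, and mt-Cytb had 2 of 3. A second random thinning, drawn over all genes and added after seeing the data, gave 8 of 10 members, beside 25.1% of all 14260 genes. Tested one by one over the 5 groups at matched depth, 3 of 10 members were called, mt-Co1, mt-Co2 and mt-Nd5 (exact permutation within batches, adjusted p = 0.0417 each). By the same test mt-Nd1, mt-Nd2 and mt-Atp6 were at 0.0525, mt-Co3, mt-Nd4 and mt-Cytb at 0.0697 and mt-Nd3 at 0.116. The adjustment covered these 10 members only. The share of all genes called is not given for this test, so the count of members has no background beside it.

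The share was higher at day 1 across the range of cells. Over mice, the 10th percentile of the share per thinned cell was 1.65% to 1.86% in ATV:RSV and 2.13% to 2.54% at day 1. The median was 3.10% to 3.40% against 3.90% to 4.46%, and the 90th percentile 5.32% to 5.73% against 5.79% to 6.65%. None of these 3 ranges overlapped.

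Binning the cells by their own depth gave differences of unequal size. Cells with fewer than 2000 or at least 12000 UMIs (up to 24995) were in no bin, and median depth was highest at day 1. In cells with 2000 to under 4000 UMIs the share was 2.88% ± 0.21 (SD, n = 3) in ATV:RSV mice and 3.66% ± 0.63 at day 1, and the batch 2 mouse of day 1 overlapped. At 4000 to under 6000 UMIs it was 3.32% ± 0.18 against 3.94% ± 0.33, with no overlap. In cells with 6000 to under 8000 UMIs the groups were closest, at 4.01% ± 0.14 and 4.27% ± 0.29. At 8000 to under 12000 UMIs they stood at 3.69% ± 0.23 and 4.56% ± 0.27. The 5-group exact p was 0.0539, 0.0265, 0.393 and 0.0601 in the 4 bins. Day 1 did not have the highest mean in every bin: day 7 stood at 3.96% ± 0.27 in the second bin and 4.28% ± 0.32 in the third, next to 3.94% and 4.27% at day 1. In cells with 8000 to under 12000 UMIs all 3 mice of day 28 also lay above every ATV:RSV mouse (4.10% ± 0.27), while day 14 overlapped ATV:RSV in each bin. Within ATV:RSV mice the share was highest in the third bin, so it did not follow depth in 1 direction.

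**Figure D2:**
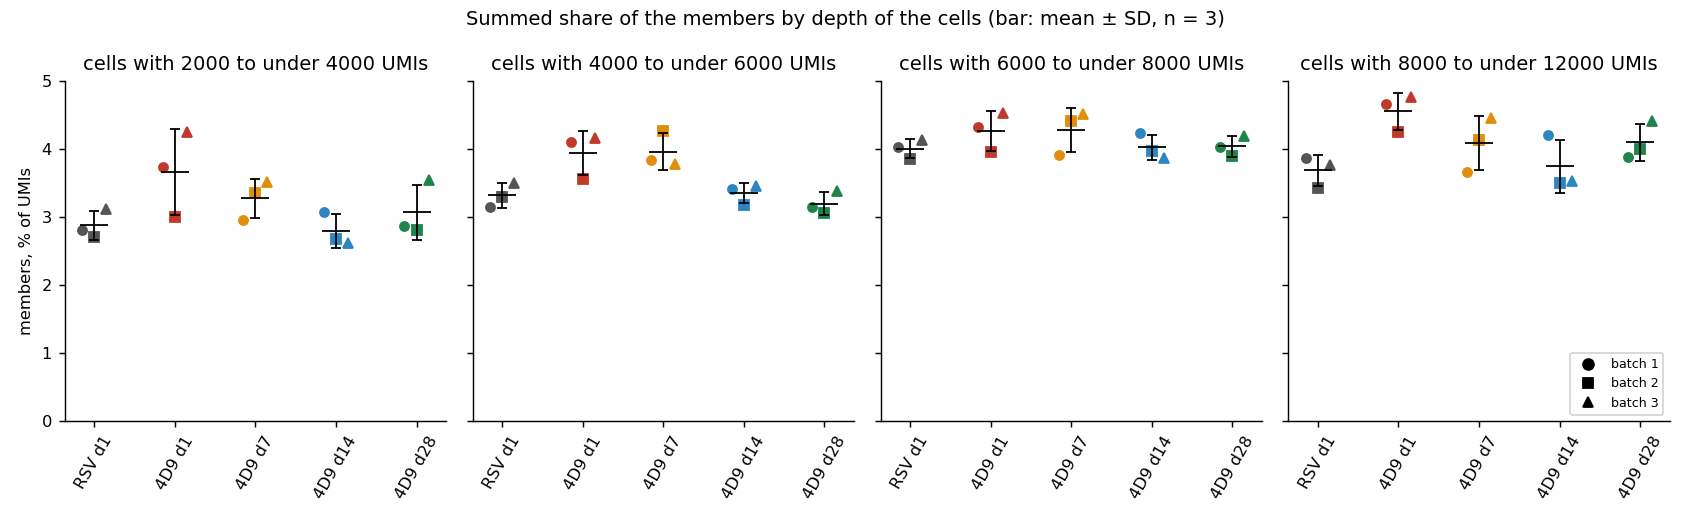
Summed share of the 10 members in percent of UMIs (y axis, from 0) by group (x axis) in 4 bins of UMIs per cell, 1 point per mouse, with mean ± SD of 3 mice. The day 1 and ATV:RSV means are nearest in cells with 6000 to under 8000 UMIs, at 4.27% and 4.01%.

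Within the day 1 mice, cells with a UMI of Mki67 or Top2a had a slightly higher share than cells without. There were 1398 to 2015 cells per mouse with such a UMI and 4520 to 5720 without. At matched depth the share with such a UMI exceeded that without in 3 of 3 mice, by 0.00678, 0.0895 and 0.0733 percentage points in batches 1, 2 and 3, where the shares averaged 4.36% and 4.31%. Without cells holding such a UMI, the 5-group exact p at matched depth was 0.0210, and all 10 members were still called higher at day 1.

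At day 7 all 10 fold changes were smaller than at day 1. Against ATV:RSV, mt-Co1 (0.27 ± 0.05, adjusted p = 0.00532) and mt-Co2 (0.28 ± 0.07, adjusted p = 0.0412) were called higher, 2 of 10 where 2.99% of all genes were higher and 0.996% lower, 3.98% in all. Under library size alone mt-Co1 was the 1 member called, and the balance of all genes turned over, with 2.22% higher and 6.19% lower. mt-Co1 stood at 4899, 5064 and 5041 CPM, above every ATV:RSV mouse. mt-Co2 stood at 5147, 5690 and 5771 CPM and lost the call in 9 of 27 alternative analyses, among them each ATV:RSV mouse left out in turn (adjusted p = 0.0673 to 0.154). mt-Co3 (0.30 ± 0.08, adjusted p = 0.0533), mt-Cytb (0.29 ± 0.08, adjusted p = 0.0688) and mt-Atp6 (0.29 ± 0.08, adjusted p = 0.0714) had like sizes and missed the threshold. With the batch as a block these 3 were called as well, 5 of 10 in all, and the share of all genes called with the block is not given here. The complex I members had smaller values apart from mt-Nd3 (0.33 ± 0.17), at 0.16 (mt-Nd1), 0.11 (mt-Nd2), 0.18 (mt-Nd4) and -0.04 (mt-Nd5). mt-Nd5 was the only member below 0 at day 7, at 421, 436 and 403 CPM. In TMM-scaled CPM, 6 of 10 members had all 3 mice of day 7 above every ATV:RSV mouse and 0 had all 3 below, against 11.0% and 10.2% of genes. As an unscaled share of UMIs only mt-Co1 and mt-Co2 had all 3 above, and mt-Nd5 had all 3 below. The share of all genes is not given for that unscaled measure. The summed share at matched depth was 3.69%, 4.10% and 4.12%, and its difference from ATV:RSV within batches was 0.203, 0.773 and 0.495 percentage points.

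Tested directly, 7 of 10 members were lower at day 7 than at day 1, in a comparison where 33.9% of genes were lower and 33.0% higher, 66.9% in all. mt-Nd1 (-0.73 ± 0.08), mt-Nd2 (-0.55 ± 0.09) and mt-Nd5 (-0.48 ± 0.06) fell most, with adjusted p of 4.7e-07, 3.5e-05 and 2.96e-06. mt-Co2 (-0.30), mt-Atp6 (-0.27), mt-Co1 (-0.20) and mt-Nd4 (-0.19) fell less, with adjusted p from 0.00169 to 0.0115. mt-Nd3 (-0.33 ± 0.17), mt-Co3 (-0.17 ± 0.08) and mt-Cytb (-0.16 ± 0.08) did not pass, and all 10 passed with the batch as a block. The share of all genes called with the block is not given here, so that count has no background beside it. Under library size alone 4 passed, mt-Nd1, mt-Nd2, mt-Co2 and mt-Nd5, where 27.8% of all genes were lower and 41.4% higher.

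At days 14 and 28 no member was called (limma-voom, 0 of 10, and 0 at an unadjusted p under 0.05), also by edgeR and DESeq2. The background was 0.386% of genes called higher and 0.0140% lower at day 14, 0.400% in all, and 0.00% at day 28. Log2 fold changes ran from 0.01 (mt-Nd5) to 0.12 (mt-Nd3) at day 14 and from -0.05 (mt-Nd5) to 0.12 (mt-Nd3) at day 28, with SE from 0.05 to 0.17. The share of UMIs was 3.91%, 3.41% and 3.46% at day 14 and 3.59%, 3.56% and 3.93% at day 28, so both groups overlapped ATV:RSV. In CPM no member had all 3 mice above or below every ATV:RSV mouse, where 5.29% and 5.16% of genes did at day 14 and 4.59% and 4.34% at day 28. In UMIs per cell, without scaling to the library total, mt-Nd1, mt-Atp6, mt-Co3 and mt-Cytb had all 3 mice of day 28 above every ATV:RSV mouse, 4 of 10 members beside 8.05% of all genes. All UMIs per cell had a day 28 mean 1.06 times that of ATV:RSV. The batch 1 mouse of day 14 was the highest of its group for 9 of 10 members. Over all 5 groups the moderated F test called 10 of 10 members, with adjusted p from 1.67e-07 (mt-Nd1) to 0.0212 (mt-Nd3), where 66.5% of genes were called.

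**Figure D3:**
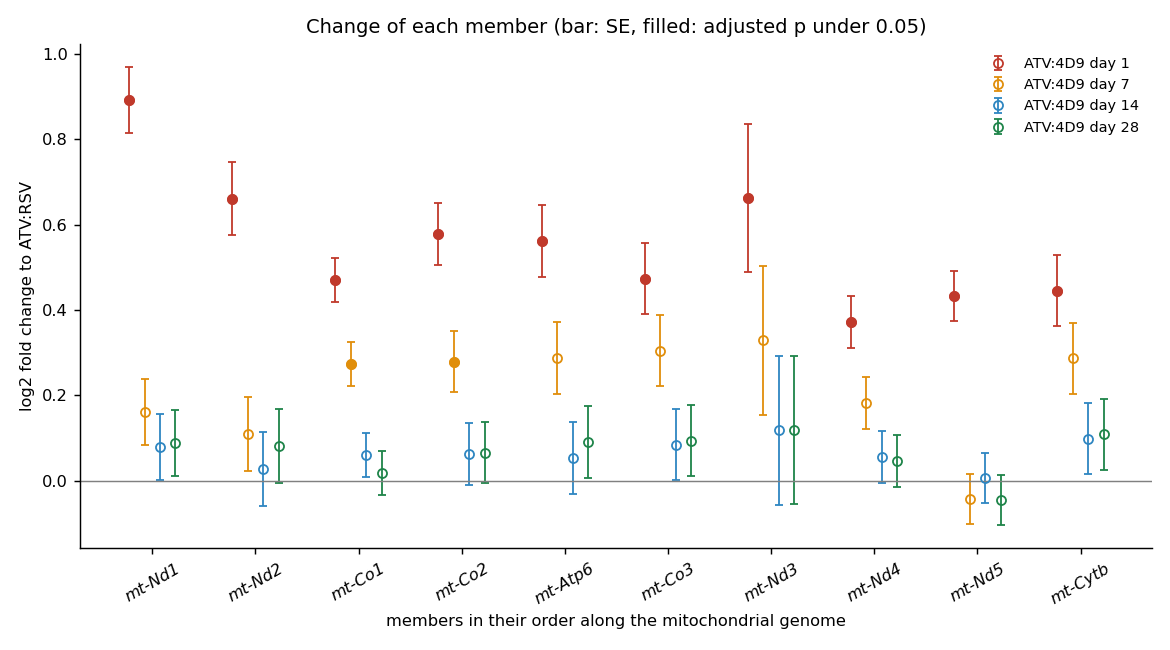
Log2 fold change to ATV:RSV (y axis) ± SE of each member at days 1, 7, 14 and 28, with members ordered along the genome (x axis) and filled points for adjusted p under 0.05. Day 1 values lie between 0.37 (mt-Nd4) and 0.89 (mt-Nd1), and only mt-Co1 and mt-Co2 are filled at day 7.

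The members shared a direction at day 1 but not a size. To measure this, each member was set against the geometric mean of the other 9 in the same mouse, a ratio that scaling of the library does not touch. This log2 ratio differed over the 5 groups for 4 of 10 members (exact permutation within batches, adjusted over 10): mt-Nd2 and mt-Co3 (both p = 0.00174), mt-Nd1 (p = 0.00602) and mt-Cytb (p = 0.0311). For mt-Nd1 the ratio was -0.43, -0.30 and -0.29 in ATV:RSV mice and -0.02, 0.05 and 0.07 at day 1, a rise of 0.41, 0.35 and 0.36 within batches 1 to 3. At days 7, 14 and 28 it was back between -0.47 and -0.27. For mt-Nd2 the day 1 rise within batches was 0.18, 0.05 and 0.13, and at day 7 the difference from ATV:RSV was -0.10, -0.14 and -0.13 within batches 1, 2 and 3.

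The ratios of mt-Co3 and mt-Cytb went the other way, although both transcripts rose at day 1 (log2 fold change 0.47 and 0.45). Each ratio is taken against the rest of the members, so the rises of mt-Nd1 (0.89) and mt-Nd2 (0.66) pull down the others. How much of the lower ratios of mt-Co3 and mt-Cytb came from this was not tested. The ratio of mt-Co3 was 1.46, 1.47 and 1.51 in ATV:RSV mice, 1.43, 1.33 and 1.41 at day 1 and 1.53, 1.56 and 1.64 at day 7. The ratio of mt-Cytb was 0.43, 0.35 and 0.46 in ATV:RSV mice, 0.31, 0.22 and 0.34 at day 1 and 0.47, 0.45 and 0.55 at day 7. Relative to the other members, both thus had their lowest group mean at day 1 and their highest at day 7. For mt-Cytb the day 7 mice overlapped those of ATV:RSV, day 14 (0.44, 0.47 and 0.44) and day 28 (0.49, 0.45 and 0.44). mt-Nd4 had a ratio of 0.02, 0.12 and 0.02 in ATV:RSV mice and -0.19, -0.16 and -0.11 at day 1, and missed the threshold over the 5 groups (exact adjusted p = 0.0557), as did mt-Co2 (0.0519). mt-Nd3 gave the highest exact adjusted p of the 10 (0.845). Its ratio was highest in the batch 1 mouse in ATV:RSV and at days 1, 7 and 14, but not at day 28, so part of its spread went with the batch. Leaving out any 1 batch left 0 members called, with 10 mice in the test. So few arrangements remain then that no member could pass alone after adjustment over 10, so this loss cannot decide on single members.

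The 3 members with a lone T at the end of the coding sequence, mt-Co3, mt-Nd4 and mt-Cytb, whose 3′ ends are printed above, were among the 5 members with the smallest day 1 fold changes (0.37 to 0.47), with mt-Nd5 and mt-Co1. This was seen in the values and was not tested. Across the 10 genes the start position and the day 1 fold change had a Spearman correlation of -0.70, against 0.22, 0.14 and 0.14 at days 7, 14 and 28. The points were genes of 1 molecule measured in the same mice, so these values are a description.

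Levels per kilobase of annotated gene kept much of their order. mt-Atp6, mt-Co3 and mt-Co2 ranked 1, 2 and 3 and mt-Nd4 and mt-Nd5 ranked 9 and 10 in all 5 groups. In ATV:RSV mice mt-Atp6 was at 9120 CPM per kilobase and mt-Nd5 at 237. mt-Co1 and mt-Nd3 were next to each other at 2679 and 2673 CPM per kilobase and did not differ beyond their spread. mt-Nd1 moved from rank 8 in ATV:RSV mice to rank 5 at day 1 and returned to rank 8. A 3′ assay counts 1 end per molecule, so division by length is a convention here.

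Within single cells at matched depth the members rose and fell together. The median Spearman correlation over the 45 pairs of members, across cells of 1 mouse, was 0.565 to 0.577 in ATV:RSV mice and 0.539 to 0.567 at day 1. It was lowest at day 7 (0.482 to 0.522), below every other mouse. Pairs with mt-Nd5 were the weakest, the lowest being 0.230 for mt-Nd3 and mt-Nd5 (median over 15 mice). Cells of 1 mouse share a library, and members with few UMIs per cell have more counting noise, so these correlations carry no test. Between mice of a group, at least 9 of the 10 members lay on the same side of the group mean in 11 of 15 mice.

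Of the authors' 3 deposited clusters, cluster 2 followed day 1. It held 5607 to 6597 cells per mouse at day 1 and 74 to 245 in every other mouse, and clusters 0 and 1 held 180 to 555 cells per mouse at day 1. The clusters were made from all genes, the members included, so the values below are a description. The share of the members was higher in cluster 2 than in cluster 0 in 15 of 15 mice and higher than in cluster 1 in 14 of 15. At matched depth the same counts were 15 and 13 of 15.

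Within each cluster the day 1 mean lay above the ATV:RSV mean, by 0.448, 0.579 and 0.547 percentage points in clusters 0, 1 and 2. Without the batch 1 mouse of day 1 the difference in cluster 0 was 0.278. In cluster 0 the share was 3.61%, 3.34% and 3.67% in ATV:RSV mice and 4.33%, 3.68% and 3.95% at day 1. At matched depth the batch 2 mouse of day 1 overlapped in cluster 0, at 3.57% against 3.59% in the highest ATV:RSV mouse. In cluster 1 it was 3.51%, 3.51% and 3.70% against 4.43%, 3.68% and 4.35%, so the batch 2 mouse of day 1 overlapped. In cluster 2 it was 3.82%, 3.98% and 3.76% against 4.53%, 4.09% and 4.58%. All 10 members had a day 1 mean share above that of ATV:RSV in each cluster, with all 3 mice above every ATV:RSV mouse for 5 members in cluster 0 and 3 each in clusters 1 and 2. Of all 14260 genes, 9.90%, 12.2% and 20.9% did so in clusters 0, 1 and 2, so the 3 members of cluster 2 were near the background, and these clusters hold few cells in 1 of the groups compared. mt-Nd1 and mt-Nd2 were among these in all 3 clusters, with log2 ratios of their mean shares of 0.29, 0.39 and 0.49 (mt-Nd1) and 0.29, 0.30 and 0.39 (mt-Nd2) in clusters 0, 1 and 2. mt-Co1 moved least in clusters 0 and 2 (0.03 and 0.05). At day 7 mt-Nd5 was the 1 member whose mean share lay below ATV:RSV, in each of the 3 clusters.

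**Figure D4:**
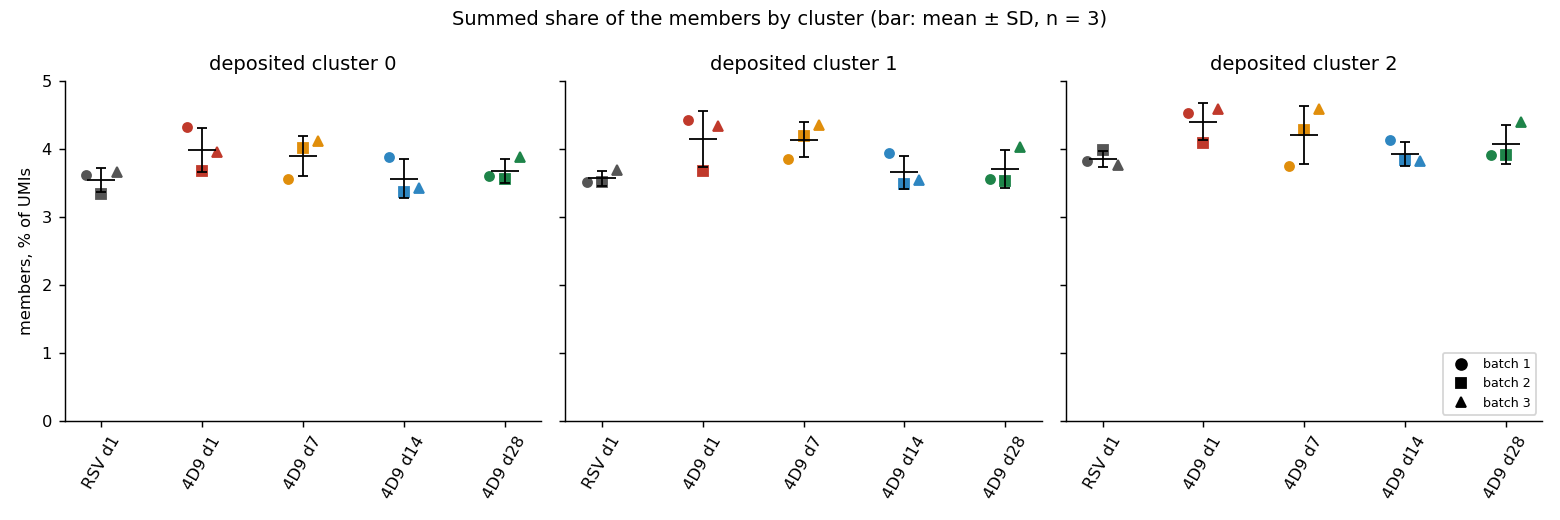
Summed share of the 10 members in percent of UMIs (y axis, from 0) by group (x axis) in each deposited cluster, 1 point per mouse, with mean ± SD of 3 mice. The day 1 means of 3.99%, 4.15% and 4.40% in clusters 0, 1 and 2 lie above the ATV:RSV means of 3.54%, 3.57% and 3.85%.

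The nuclear-encoded partners rose more. Of 77 nuclear subunits of complexes I to V, 75 were called higher and 0 lower at day 1, where 34.7% of all genes were higher, with a median log2 fold change of 1.00, beside 0.52 for the 10 members and -0.05 for all genes. By complex the medians were 0.88 (I, 36 genes), 0.56 (II, 4 genes), 0.79 (III, 9 genes), 1.32 (IV, 11 genes) and 1.16 (V, 17 genes). Atp5g1, which encodes the c-ring subunit of ATP synthase, rose by 1.89 ± 0.06 (adjusted p = 5.86e-13) and Ndufa12, an accessory subunit of complex I, by 1.64 ± 0.06 (adjusted p = 1.37e-12). The smallest called change was in Uqcrh, the hinge protein of complex III (0.24 ± 0.05, adjusted p = 0.000266, called in 26 of 27 alternatives). The summed share of UMIs of the 77 nuclear subunits was 1.16%, 1.09% and 1.14% in ATV:RSV mice and 1.98%, 1.94% and 1.95% at day 1 (5-group exact p = 0.00604). Several of these genes have near-identical pseudogenes, which makes their counts less certain.

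The balance of mitochondrial to nuclear subunits therefore dropped at day 1 in each complex with both kinds. It was taken as the difference of mean log2 levels and tested over the 5 groups by exact permutation within batches. The adjusted p over 4 complexes was 0.0109 for complexes III, IV and V and 0.0290 for complex I. For complex IV the log2 ratio was 4.56, 4.64 and 4.65 in ATV:RSV mice and 3.93, 3.79 and 3.93 at day 1, with differences of -0.63, -0.84 and -0.71 within batches 1 to 3. For complex V the day 1 differences were -0.53, -0.73 and -0.55, for complex III -0.43, -0.55 and -0.49 and for complex I -0.31, -0.32 and -0.28. At day 7 the ratio for complex V was 5.20, 5.45 and 5.51 against 5.19, 5.22 and 5.27, and the batch 1 mouse overlapped. Without batch 2 or batch 3, 0 of the 4 complexes passed, and without batch 1 all 4 did.

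**Figure D5:**
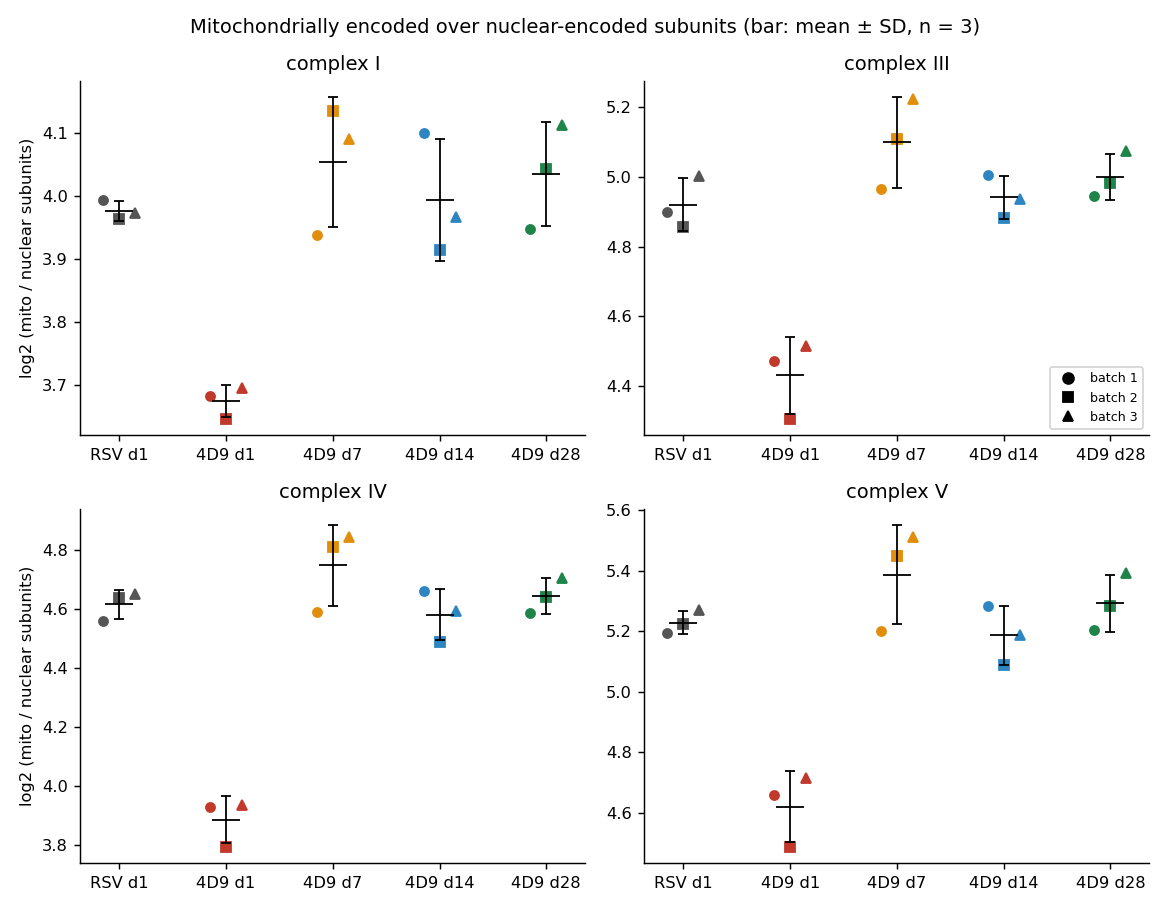
Log2 ratio of mitochondrially encoded to nuclear-encoded subunits (y axis, not from 0) by group (x axis) for complexes I, III, IV and V, 1 point per mouse, with mean ± SD of 3 mice. The 3 day 1 mice lie below all 12 other mice in each complex, for complex IV at 3.79 to 3.93.

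At day 7, 7 of 77 nuclear subunits were called higher and 0 lower, where 2.99% of all genes were higher and 0.996% lower. Uqcrh (0.52 ± 0.05, adjusted p = 4.94e-06) and Ndufa6 (0.35 ± 0.06, adjusted p = 0.00186) were highest, and Atp5l (0.25 ± 0.07, adjusted p = 0.0419) and Ndufb5 (0.19 ± 0.04, adjusted p = 0.0156) lowest among these. Atp5l was called in 13 of 27 alternative analyses and Ndufb5 in 21 of 27. At day 14 Uqcrh alone was called (0.26 ± 0.05, adjusted p = 0.0199), a call that held in 21 of 27 alternatives. At day 28 no nuclear subunit was called.

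Genes that act on the mitochondrial genome and its RNA moved both ways at day 1. The counts of these lists stand beside 34.7% of all genes called higher and 34.6% lower on that day, and several lie near those shares. Of 7 tested genes of mitochondrial transcription, 1 was called higher and 4 lower. Tfam, which packages the mitochondrial genome and starts its transcription, rose (0.47 ± 0.05, adjusted p = 4.52e-07). The termination factor family members Mterf1b (-1.04 ± 0.20, adjusted p = 0.000225), Mterf1a (-0.61 ± 0.14, adjusted p = 0.000921) and Mterf3 (-0.22 ± 0.07, adjusted p = 0.0112, called in 26 of 27 alternatives) were lower, and Mterf1a and Mterf1b are close copies whose reads could be split. Of 18 genes of RNA processing and stability, 11 were higher and 3 lower. Fastkd3, a FASTK family protein of mitochondrial RNA (1.47 ± 0.11, adjusted p = 4.63e-09), and Slirp, which with LRPPRC stabilises mitochondrial mRNAs (1.38 ± 0.09, adjusted p = 1.68e-09), rose most. The helicase of RNA decay, Supv3l1 (-0.40 ± 0.07, adjusted p = 0.000175), and Ptcd1 (-0.46 ± 0.08, adjusted p = 0.000138) were lower.

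Of 12 genes of mitochondrial DNA replication and nucleotide supply, 4 were higher and 7 lower at day 1. Top1mt, the mitochondrial topoisomerase (0.74 ± 0.10, adjusted p = 4.91e-06), and Rnaseh1 (0.66 ± 0.07, adjusted p = 3.86e-07) were highest. Tk2 (-1.38 ± 0.12, adjusted p = 3.16e-08) and Rrm2b (-0.94 ± 0.08, adjusted p = 3.33e-08), which supply nucleotides outside S phase, were lowest. Among 8 nuclear regulators, Pprc1, a coactivator of the PGC-1 family, was called higher (0.76 ± 0.10, adjusted p = 6.07e-06) and 4 were lower, Nrf1 (-0.41 ± 0.08, adjusted p = 0.000208) and Esrra (-0.35 ± 0.07, adjusted p = 0.000314) most and the transcription factor Yy1 least (-0.21 ± 0.05, adjusted p = 0.00286). Across these 4 lists 1 gene was called against ATV:RSV after day 1, Supv3l1, higher at day 7 (0.28 ± 0.07, adjusted p = 0.0411, called in 13 of 27 alternatives).

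Between day 1 and day 7, where 33.9% of all genes were called lower and 33.0% higher, the nuclear subunits had 74 genes called lower and 2 higher, Uqcrh (0.28 ± 0.05, adjusted p = 7.53e-05) and Ndufa6 (0.29 ± 0.06, adjusted p = 0.000385), with Atp5g1 (-1.94 ± 0.06) and Ndufa12 (-1.64 ± 0.06) lowest. Of the transcription genes 3 were higher and 1 lower, Tfam (-0.51 ± 0.05, adjusted p = 2.95e-07), with Mterf1b (0.78 ± 0.21, adjusted p = 0.00387) and Mterf1a (0.39 ± 0.14, adjusted p = 0.0239, called in 23 of 27 alternatives) highest and Tfb2m, a transcription factor of mitochondria, the other (0.36 ± 0.07, adjusted p = 0.000177). Of the RNA processing and stability genes 3 were higher and 11 lower, from Supv3l1 (0.67 ± 0.07) and Ptcd1 (0.46 ± 0.09) to Rexo2 (-1.31 ± 0.05) and Fastkd3 (-1.49 ± 0.11). Of the replication and nucleotide genes 7 were higher and 4 lower, with Tk2 (1.20 ± 0.12) and Rrm2b (0.84 ± 0.08) against Top1mt (-0.61 ± 0.10) and Rnaseh1 (-0.75 ± 0.07). Of the regulators 4 were higher, Nrf1 (0.60 ± 0.08) and Gabpa (0.35 ± 0.05) most and Yy1 least (0.14 ± 0.06, adjusted p = 0.0382, called in 17 of 27 alternatives), and Pprc1 was lower (-0.58 ± 0.10).

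Other features also differed from ATV:RSV at day 1, and their part in the result was not tested. The share of ribosomal protein genes was 12.4% to 13.1% in ATV:RSV mice, 15.3% to 16.1% at day 1, 16.4% to 17.2% at day 7, 14.4% to 15.7% at day 14 and 12.7% to 13.8% at day 28. At day 14 it lay above every ATV:RSV mouse in 3 of 3 mice, and the share of the members in 1 of 3. The nuclear RNA Malat1 was at 2.45% to 2.77%, 1.26% to 1.46%, 1.85% to 1.95%, 2.38% to 2.48% and 2.52% to 2.69% in the same groups. Of 15 immediate early genes that tissue dissociation is known to induce, 1 was higher and 9 lower at day 1, beside 34.7% of all genes higher and 34.6% lower. Ier3 was the 1 higher (1.14 ± 0.22, adjusted p = 0.00028), and Jund (-1.01 ± 0.06, adjusted p = 6.09e-10) and Jun (-0.88 ± 0.06, adjusted p = 5.06e-09) were lowest. At day 7, 0 of the 15 were higher and 1 lower against ATV:RSV, Jun (-0.25 ± 0.06, adjusted p = 0.0408, called in 18 of 27 alternatives). From day 1 to day 7, 10 were higher and 1 lower, where 33.0% of all genes were higher and 33.9% lower.

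The 3 mitochondrially encoded genes outside the list held 0.0447% of UMIs. mt-Nd6, a complex I subunit and the 1 protein gene on the minus strand, was at 38.2, 34.2 and 32.8 CPM in ATV:RSV mice and 60.9, 63.1 and 53.7 at day 1 (0.75 ± 0.09, adjusted p = 1.3e-06). It was also called at day 7 (0.36 ± 0.09, adjusted p = 0.0379). mt-Atp8 rose by 0.57 ± 0.08 (adjusted p = 1.52e-05) and mt-Nd4l by 0.38 ± 0.10 (adjusted p = 0.00256) at day 1. They overlap mt-Atp6 (0.56) and mt-Nd4 (0.37) on the same strand, so their values may not be separate from those of these members.

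The 5 genes off the mitochondrial chromosome whose profile over the 15 mice lay nearest to the mean of the members were Trir, Lap3, Cd81, Mrpl48 and Tspan31. Their root mean square difference in centred log2 CPM was 0.067 to 0.071, among 7761 genes compared. Cd81, a tetraspanin, had log2 fold changes of 0.51, 0.23, 0.04 and 0.07 at days 1, 7, 14 and 28.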

How the data were processed

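Single-cell 3′ libraries (10x Genomics, v3 chemistry) of microglia from 15 mice were used. The authors deposited 1 matrix of UMI counts per gene and cell with a table of cells (mouse, cluster, total UMIs, genes and percent mitochondrial UMIs); per the submitters' processing notes, Cell Ranger 4.0.0 and mm10 were used, whereas the study's methods name other versions of Cell Ranger. The filters on cells and any removal of doublets are not given in the sources used here. UMIs, genes and the deposited mitochondrial percent (within 0.01) were recomputed for all 102043 cells and matched. Cells held 667 to 24995 UMIs and at least 500 genes, and each member had 14029 to 606321 UMIs per mouse.

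Counts were summed per mouse and tested with limma-voom (limma 3.58.1, R 4.3.3) after TMM scaling (edgeR 4.0.16) and a filter on low counts (minimum count 10, minimum total 15), with a mean for each of 5 groups and Benjamini-Hochberg adjustment over 14260 genes at 0.05. Error bars on fold changes are standard errors. CPM are TMM-scaled, except the sums of cell type markers, which are scaled to the library total only. Single values per mouse were tested by an exact permutation test that moved the group labels only inside a batch (14400 arrangements, with 6.9e-05 the smallest p they can give). edgeR's quasi-likelihood test and DESeq2 1.42.0 were alternatives, as were other scalings, filters, sets of cells and each mouse left out.

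The labels give each mouse's batch, and batch numbers pair mice across groups. Deviations from group means had a mean correlation of 0.0358 between mice of 1 batch (30 pairs) and -0.0176 between batches (60 pairs). Replicate libraries of a group differed by more than sampling noise in all 15 pairs.

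The members and gene lists were chosen with earlier results of these data known. Members are named in every comparison that called them, and of each of 5 lists (nuclear subunits, mitochondrial transcription, RNA processing and stability, replication and nucleotide supply, nuclear regulators) the 2 highest and 2 lowest called genes, with the 5 nearest profiles among genes of mean CPM of at least 10. The immediate early genes were outside this rule, and Jun, Jund and Ier3 were named after their values were seen. The result of 1 gene that this rule names is not reported here. Gene positions and 3′ ends came from GENCODE M21. Nuclear copies of mitochondrial DNA could share reads with the members, and how they were counted is not given in the sources used here. The script for limma-voom was tested on simulated counts before use.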

Additional observations from a re-analysis of the deposited data

Results flagged for a closer look

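Of the members, 7 had effects at day 1 and day 7 that differed from each other when the 2 days of ATV:4D9 were tested directly (limma-voom, 3 mice against 3). All 7 were lower at day 7, in a comparison where 33.9% of all genes were called lower and 33.0% higher, 66.9% in all. The log2 differences of day 7 from day 1 were -0.73 for mt-Nd1 (adjusted p = 4.7e-07), -0.55 for mt-Nd2 (adjusted p = 3.5e-05) and -0.48 for mt-Nd5 (adjusted p = 2.96e-06). They were -0.30 for mt-Co2 (adjusted p = 0.00169), -0.27 for mt-Atp6 (adjusted p = 0.00902), -0.20 for mt-Co1 (adjusted p = 0.00299) and -0.19 for mt-Nd4 (adjusted p = 0.0115). Under library size alone only mt-Nd1, mt-Nd2, mt-Co2 and mt-Nd5 passed, where 27.8% of all genes were lower and 41.4% higher. Groups of 3 mice were too small for the search for single outlying mice.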

How the results depend on the processing

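All 10 members were called higher at day 1, and 0 at days 14 and 28, under each of the 27 alternatives to the limma-voom analysis. The number called at day 7 was 2 and became 1 under library size alone, 5 with DESeq2, 5 with the batch as a replicate block, 6 in cells with at most 5% mitochondrial UMIs, and 1 to 4 with 1 mouse left out. It was 1 when a single ATV:RSV mouse, whichever it was, was left out, and without replicate 1 of day 1, replicates 2 or 3 of day 7 or replicates 1 or 2 of day 28, and 4 without replicate 2 of day 1 or replicate 1 of day 7 or day 14. Here mt-Co1 was called in 27 of 27 and mt-Co2 in 18. Day 7 against day 1 had 7 members called, 4 under library size alone, 10 with the replicate block and 6 to 9 with 1 mouse left out. No called fold change turned its direction under any of these alternatives. Shares of all genes called are given here for the main fit and for library size alone, not for the other settings. The 5-group exact p of the share (0.0249) was 0.0333 to 0.233 with 1 batch left out, that of member UMIs per cell (0.0253) was 0.0333 to 0.192, and that of the share at matched depth (0.0174) was 0.0667 to 0.200. The last was 0.0539, 0.393 and 0.0601 in cells with 2000 to under 4000, 6000 to under 8000 and 8000 to under 12000 UMIs. The ratio to the other 9 members gave 4 members, and 0 to 0 with 1 batch left out. The mitochondrial to nuclear ratio gave 4 complexes, and 0 to 4 with 1 batch left out. Leaving out a batch leaves 10 mice and fewer arrangements, too few for a lone member to pass the adjustment over 10 in the ratio test. Permutation over all mice with no replicate block gave permutation p = 0.0162, 0.00734 and 0.00837 for the share, UMIs per cell and the share at matched depth. The day 1 difference within the deposited clusters, was also taken at matched depth and with 1 mouse left out, both added after seeing the data. At matched depth it was 0.407, 0.629 and 0.508 percentage points in clusters 0, 1 and 2. With 1 mouse left out it was 0.278 to 0.601, 0.439 to 0.816 and 0.456 to 0.704. The cause of the other changes was not tested.

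With 3 mice in each group, an exact permutation test of 1 day against ATV:RSV cannot pass 0.05, and intervals from counts would cover counting error only. Depth limits mt-Nd5 and mt-Nd3 most per cell. The single ATV:RSV group at day 1 is the reference for every day, so a shift in those 3 mice moves all 4 comparisons. Cells over 10% mitochondrial UMIs were not in the files, and their number per group was not analysed here.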
